A study of Mus musculus with 18 samples.

Results

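Matrix metalloproteinases (MMPs) and tissue inhibitors of metalloproteinases (TIMPs) were followed as 10 genes, Mmp12, Mmp9, Mmp2, Mmp3, Mmp8, Mmp13, Mmp14, Timp1, Timp2 and Timp3, chosen by gene symbol from the platform annotation. They were represented by 16 probe sets, out of 12422 non-control probe sets and 8251 genes with 1 symbol on the array. RNA from whole mouse heart had been hybridised to the Affymetrix U74V2A oligonucleotide array, 1 array per sample. The hearts were of mice with a TNF-alpha transgene that the labels call cardiac-specific, at 3 weeks (3 females and 3 males), 13 weeks (3 males) and 40 weeks (3 females), and of FVB mice at 3 weeks (3 columns labelled female and 3 male). The labels name no promoter and no line for the transgene, and place compensated hypertrophy and dilated failure among the ages without saying which age shows which. FVB hearts of 13 and 40 weeks were not analysed here, and the later transgenic ages were each of 1 sex, so a change with age in transgenic hearts could not be set against normal ageing, and the 13-week and 40-week groups differ in both age and sex. Whether each array is a mouse of its own is not said in the labels, so the tests weigh differences against the spread between arrays, which may be technical.

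MMPs are zinc-dependent proteases, secreted or held at the cell membrane as inactive proenzymes, that cut collagens, elastin, proteoglycans and many non-matrix proteins. TIMPs bind the active site of the mature enzymes and block it, and some also bind proenzymes, so the net activity in a tissue depends on transcription, activation and inhibition together. In the heart both families are studied for the turnover of the matrix during dilation and fibrosis, and transcription of several MMP genes is known to respond to TNF and interleukin 1. An array reads transcript signal and says nothing of proenzyme activation or enzyme activity.

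Columns 1 and 2 of the FVB females held identical values in all 12488 probe sets and were counted as 1 array, which leaves 17 distinct arrays, 5 of them FVB. That duplicated FVB female array stood apart from the others: 7.33% of its probe sets lay at the floor (a signal of 44.675, below which signals were set to that value), against 23.7 to 28.3% on every other array. The ratio of 3′ to 5′ Actb signal, a measure of RNA quality, differed along genotype. It was 1.293 to 1.973 on the FVB arrays and 1.12 to 1.437 on the transgenic arrays of 3 weeks. Its part in the differences between the genotypes was not tested. Of the arrays labelled FVB male, 2 carried signal of the female-specific transcript Xist (1380.6 and 2705.7), so the labelled sex of the FVB arrays is doubtful. The Y-linked transcript Eif2s3y was 298.7 and 67.4 on these arrays, against 544.9 on FVB male 3 and 347.8 to 484.4 on transgenic male arrays. On the FVB female arrays it was 115.3 and 40.9. Of the FVB male arrays, only male 3 had Eif2s3y signal without Xist signal (5.9). Tnf itself had signals of 5475.5 to 11342.8 on the transgenic arrays of 3 weeks, against 12.5 to 124.9 on the FVB arrays. Levels were compared within a probe set, and ratios or sums over probe sets are given for their change between groups alone.

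In transgenic hearts of 3 weeks the macrophage elastase Mmp12 and the gelatinase Mmp9 had strong signals, while FVB hearts lay at or near the floor for both. The membrane-type enzyme Mmp14 was 2.53-fold higher in transgenic hearts and the inhibitor Timp1 3.40-fold higher, the inhibitor Timp3 was 1.68-fold lower, and Timp2 did not pass the test. The collagenase Mmp13 was low in both genotypes and lower in transgenic hearts. The stromelysin Mmp3 was near the floor in both genotypes at 3 weeks and had clear signal in transgenic hearts of 13 and 40 weeks. Mmp2 and Mmp8 stayed at or near the floor. Calls were common at 3 weeks: 46.6% of the 7453 probe sets tested differed between the genotypes at an adjusted p under 0.05 (limma), 24.7% higher and 21.9% lower in transgenic hearts.

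**Figure D1:**
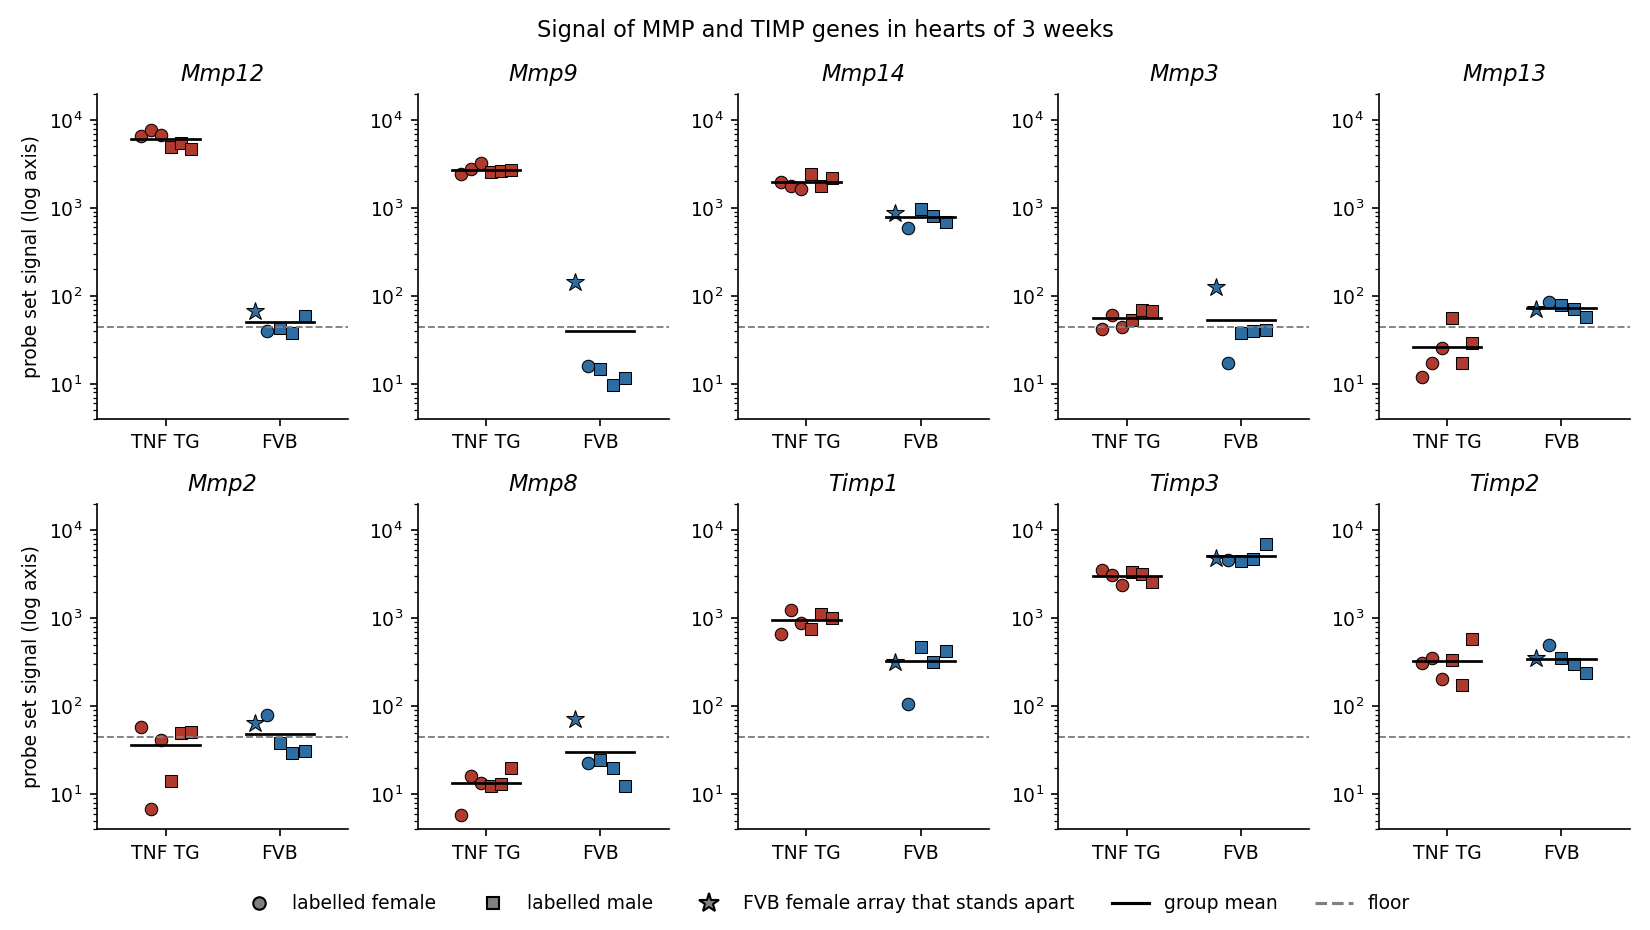
Signal of each of the 10 genes on each array of 3 weeks (log axis), with TNF transgenic hearts left of FVB hearts; circles are arrays labelled female, squares arrays labelled male, the star the FVB female array that stands apart, bars group means and the dashed line the floor of 44.675. The groups do not overlap for Mmp12, Mmp9, Mmp14, Mmp13, Timp1 and Timp3, and they overlap for Mmp3, Mmp2, Mmp8 and Timp2. The share of all probe sets without overlap was not counted.

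Of the members, 4 lie in a cluster on mouse chromosome 9, where the gene order in RefSeq is Mmp13, Mmp12, Mmp1b, Mmp3, Mmp1a, Mmp10, Mmp8, Mmp27, Mmp20 and Mmp7. The other members are spread over chromosomes 2 (Mmp9), 8 (Mmp2), 14 (Mmp14), X (Timp1), 11 (Timp2) and 10 (Timp3). Neighbouring genes of the cluster behaved differently in these hearts, so the 250 bases upstream of the annotated transcript starts of Mmp12, Mmp3 and Mmp13 are shown. They are RefSeq sequences of GRCm38.p6, all on the plus strand of chromosome 9, given 5′ to 3′ and ending at the base before the start. Capitals mark matches on either strand to the AP-1 motif TGANTCA, the NF-kB motif GGGNNNNNCC, the ETS-family PEA3 core AGGAAG and the TATA box TATAAA. N is any base, so the NF-kB motif used here is a loose pattern. No 2 motifs overlap in these windows.
Mmp12, first start, chr9:7344147-7344396: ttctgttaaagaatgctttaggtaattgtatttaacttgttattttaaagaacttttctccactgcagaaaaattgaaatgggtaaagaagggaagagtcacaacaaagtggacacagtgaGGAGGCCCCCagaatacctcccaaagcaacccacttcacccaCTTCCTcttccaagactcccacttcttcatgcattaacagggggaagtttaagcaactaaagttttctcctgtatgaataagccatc
Mmp12, second start, chr9:7347124-7347373: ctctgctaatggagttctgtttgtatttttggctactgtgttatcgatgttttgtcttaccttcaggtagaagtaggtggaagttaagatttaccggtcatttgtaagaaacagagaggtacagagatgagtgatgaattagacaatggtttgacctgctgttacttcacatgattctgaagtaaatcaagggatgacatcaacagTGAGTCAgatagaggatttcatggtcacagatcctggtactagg
Mmp3, chr9:7445572-7445821: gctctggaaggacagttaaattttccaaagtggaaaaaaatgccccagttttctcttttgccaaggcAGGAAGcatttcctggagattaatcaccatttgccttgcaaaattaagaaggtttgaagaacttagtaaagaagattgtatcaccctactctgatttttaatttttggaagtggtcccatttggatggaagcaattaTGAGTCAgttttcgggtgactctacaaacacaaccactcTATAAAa
Mmp13, chr9:7272264-7272513: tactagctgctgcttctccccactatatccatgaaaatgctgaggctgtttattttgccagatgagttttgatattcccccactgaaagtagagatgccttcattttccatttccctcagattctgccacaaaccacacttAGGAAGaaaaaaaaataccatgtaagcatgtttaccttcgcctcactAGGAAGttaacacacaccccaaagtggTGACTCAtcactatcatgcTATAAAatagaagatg

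AP-1, the dimer of Fos and Jun proteins, is a classical regulator of MMP genes. Its motif was found at bases -46 to -40 of Mmp3, -44 to -38 of the second Mmp12 start and -35 to -29 of Mmp13, counted back from the start. Among all 32851 RefSeq promoters in the table, 6.75% held that motif in a window of the same length, 45.8% the NF-kB motif, 29.5% the PEA3 core and 12.4% the TATA box. The NF-kB motif was found upstream of the first Mmp12 start and not in the windows of Mmp3 or Mmp13. A PEA3 core was found for Mmp3, Mmp13 (at 2 places) and the first Mmp12 start, and a TATA box for Mmp3 and Mmp13. Promoter entries were found for 8 of the 10 members, in 9 windows. Mmp2 and Mmp9 had no entry, so no motif could be searched for them. In the windows of Mmp8 and Mmp14 the only match was a PEA3 core, and in that of Timp2 there was none. A match is a description of letters and not a binding site, and the part of any of these motifs in the signals was not tested.

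**Figure D2:**
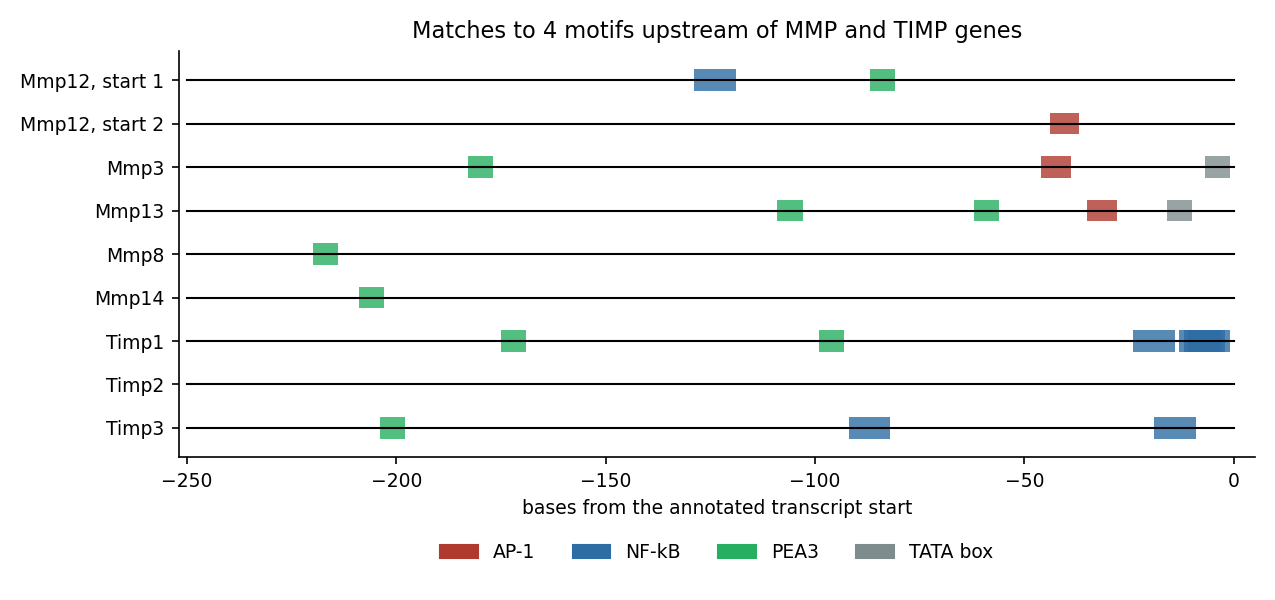
Position of matches to 4 motifs in the 250 bases upstream of the annotated start of 8 member genes (x axis, bases from the start; 1 line per window, 2 for Mmp12; colours name the motif). The AP-1 matches of Mmp3, Mmp13 and the second Mmp12 start lie between bases -46 and -29, and no motif was found for Timp2. Mmp2 and Mmp9 had no promoter entry and are not shown.

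Mmp12 encodes the macrophage metalloelastase. Its brighter probe set had signals of 6585.2, 7727.8 and 6702.3 in transgenic females and 4889.9, 5538.2 and 4738.3 in transgenic males, against 68.2 and 40.4 in FVB females and 43.7, 38.0 and 59.9 in FVB males. Every transgenic array was far above every FVB array, and 3 of 5 FVB signals were floor values. The means were 6030 ± 1171 (SD, n = 6) in transgenic and 50.04 ± 13.3 (SD, n = 5) in FVB hearts. The log2 difference was 6.83 (SE 0.16), a ratio of 114 that is a lower limit because of the FVB arrays at the floor, with adjusted p = 7.25e-14 (limma, Benjamini-Hochberg over 7453 probe sets).

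A second Mmp12 probe set, of a class that can bind related transcripts, gave 1721.3 to 2798.1 (median 1909) in transgenic hearts, against 218.7 and 58.6 in FVB females and 80.4, 42.5 and 60.2 in FVB males. Its groups did not overlap either, and its log2 difference of 4.60 (SE 0.27) was smaller than that of the first. Its highest FVB signal came from the array that stands apart. Both probe sets passed the test, the second with adjusted p = 1.68e-09 (limma).

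Mmp9, gelatinase B, which cuts denatured collagen and type IV collagen, had signals of 2447.9, 2778.2 and 3272.8 in transgenic females and 2564.5, 2603.3 and 2707.7 in transgenic males, against 144.7 and 16.1 in FVB females and 14.7, 9.8 and 11.8 in FVB males. The 6 transgenic arrays were within a narrow band, and the FVB signal of 144.7, again from the array that stands apart, was the only one over the floor. The means were 2729 ± 290.0 (SD, n = 6) in transgenic and 39.4 ± 58.9 (SD, n = 5) in FVB hearts. The log2 difference was 5.50 (SE 0.23, adjusted p = 3.4e-11, limma), a lower limit since 4 of 5 FVB arrays lay at the floor, and it was 5.93 without the array that stands apart. The dimmer second probe set, of a class that can bind other members of a gene family, gave 146.2 to 182.1 (median 161.65) in transgenic hearts while all FVB arrays lay at the floor, so its difference was at least 3.65-fold (adjusted p = 2.05e-09, limma).

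Mmp14, the membrane-type 1 enzyme, cuts fibrillar collagen at the cell surface and activates the Mmp2 proenzyme. Its signals were 1994.5, 1779.6 and 1658.2 in transgenic females and 2405.9, 1791.2 and 2182.4 in transgenic males, against 884.8 and 596.0 in FVB females and 976.6, 814.8 and 692.1 in FVB males. It was well above the floor in both genotypes, and the lowest transgenic array exceeded the highest FVB array. The means were 1969 ± 283 (SD, n = 6) and 793 ± 151 (SD, n = 5), a log2 difference of 1.34 (SE 0.15, adjusted p = 2.16e-06, limma).

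The other gelatinase, Mmp2, known from fibroblasts and the target of Mmp14, could hardly be read. Its brighter probe set gave 57.5, 6.8 and 41.5 in transgenic females and 14.2, 49.0 and 51.0 in transgenic males, against 64.1 and 79.5 in FVB females and 38.5, 29.4 and 30.6 in FVB males. Of these arrays, 3 of 6 transgenic and 3 of 5 FVB arrays lay at the floor, the groups overlapped, and the second probe set had 8.5 to 51.5 in transgenic and 7.7 to 129.1 in FVB hearts. Without the filter on dim probe sets the log2 difference was -0.22 (SE 0.07, adjusted p = 0.0343, limma over 12422 probe sets) for the first and -0.41 (SE 0.16, adjusted p = 0.0768) for the second, and the first was not called under most alternative settings.

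Mmp13, the main interstitial collagenase of rodents, was dim but ordered. It had signals of 11.9, 17.4 and 25.8 in transgenic females and 56.1, 17.1 and 29.2 in transgenic males, against 70.3 and 85.1 in FVB females and 79.4, 71.4 and 57.6 in FVB males. Every FVB array lay above the floor and above every transgenic array, of which 5 of 6 lay at the floor. Without the filter on dim probe sets the log2 difference was -0.65 (SE 0.09, adjusted p = 0.000129, limma), a lower limit of its size. With the floor at the 40th percentile of the pooled signals, all values of Mmp13 were at the floor and the difference was 0, and with array weights it was -0.64 and not called (adjusted p = 1).

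Mmp8, the neutrophil collagenase, had 5.8 to 19.9 (median 13.15) in transgenic hearts, against 72.0 and 22.7 in FVB females and 24.5, 20.0 and 12.4 in FVB males. All transgenic signals and 4 of 5 FVB signals were floor values, so no order can be read. Mmp3, stromelysin-1, which cuts proteoglycans and activates other proenzymes, had 42.3, 61.3 and 43.9 in transgenic females and 52.6, 69.8 and 66.9 in transgenic males, against 126.6 and 17.5 in FVB females and 38.4, 40.4 and 40.7 in FVB males. The groups overlapped through the FVB array that stands apart, and the log2 difference without the filter was -0.06 (SE 0.30, adjusted p = 0.933, limma).

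Among the inhibitors, Timp1, the TIMP that is commonly induced by cytokines and that binds the Mmp9 proenzyme, was higher in transgenic hearts. Its signals were 659.7, 1224.0 and 886.3 in transgenic females and 754.1, 1127.6 and 1003.3 in transgenic males, against 318.8 and 106.8 in FVB females and 475.6, 314.6 and 423.3 in FVB males. The groups did not overlap, and the lowest FVB array, female 3, lay far below the rest. The means were 942.5 ± 217 (SD, n = 6) and 328 ± 141 (SD, n = 5), and the log2 difference was 1.76 (SE 0.26, adjusted p = 5.06e-05, limma). It was 1.37 without that FVB array. The second Timp1 probe set was at the floor on all 6 transgenic and 4 of 5 FVB arrays.

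Timp3, the TIMP that is bound to the matrix and also inhibits ADAM17, the protease that releases membrane-bound TNF, went the other way. Its signals were 3509.4, 3071.2 and 2365.8 in transgenic females and 3339.4, 3144.3 and 2574.3 in transgenic males, against 4808.3 and 4600.9 in FVB females and 4478.6, 4757.3 and 6903.1 in FVB males. Every transgenic array was below every FVB array, and FVB male 3 was high among the FVB arrays. The means were 3001 ± 444 (SD, n = 6) and 5110 ± 1011 (SD, n = 5), a log2 difference of -0.75 (SE 0.17, adjusted p = 0.00254, limma), which is 1.68-fold lower. Adam17 did not exceed the floor on any of the 6 transgenic arrays of 3 weeks (19.7 to 44.0), against 25.2 to 178.2 in FVB hearts, with 1 of 5 FVB arrays at the floor, and it was 57.4 to 79.6 in transgenic hearts of 40 weeks; it did not pass the filter and was not tested.

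Timp2, which binds both Mmp14 and the Mmp2 proenzyme at the cell surface, had 310.1, 351.2 and 203.9 in transgenic females and 335.0, 173.0 and 581.8 in transgenic males, against 356.7 and 491.4 in FVB females and 357.1, 299.9 and 236.2 in FVB males. The transgenic arrays spread around the FVB arrays on both sides. The means were 326 ± 145 (SD, n = 6) and 348 ± 94.3 (SD, n = 5), and the log2 difference was -0.22 with a 95% interval of -0.80 to 0.36 (adjusted p = 0.539, limma). A shift of the size seen for Timp3 lies inside that interval, so the data do not show that Timp2 was the same in both genotypes. The other Timp2 probe sets, 2 in number, were at the floor on all 6 transgenic arrays.

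The upstream windows of the inhibitors that passed the test are shown because both hold matches to the loose NF-kB pattern GGGNNNNNCC. NF-kB is a transcription factor that TNF activates, but a match to this pattern is not a binding site. The windows come from RefSeq (GRCm38.p6, plus strand), with matches to the same 4 motifs in capitals.
Timp1, chrX:20869916-20870165: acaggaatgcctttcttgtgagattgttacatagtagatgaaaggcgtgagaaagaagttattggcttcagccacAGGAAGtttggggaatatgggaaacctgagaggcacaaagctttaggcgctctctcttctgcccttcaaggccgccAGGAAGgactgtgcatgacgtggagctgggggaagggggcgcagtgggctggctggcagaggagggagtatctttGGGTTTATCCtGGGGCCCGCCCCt
Timp3, chr10:86300162-86300411: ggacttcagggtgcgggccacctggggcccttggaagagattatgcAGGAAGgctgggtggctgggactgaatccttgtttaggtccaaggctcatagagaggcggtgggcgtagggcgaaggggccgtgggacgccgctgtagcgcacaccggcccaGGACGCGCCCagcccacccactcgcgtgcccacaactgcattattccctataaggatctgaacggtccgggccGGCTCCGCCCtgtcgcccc

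Timp1 held 4 matches to the NF-kB motif within the last 24 bases, 3 of which overlap one another, and 2 PEA3 cores. Timp3 held 2 NF-kB matches and 1 PEA3 core, and its window is richer in G and C, 65.6% against 54.4% for Timp1 and a median of 52.4% over all promoters. The motif is common, in 45.8% of promoters, and its part in the signal of either gene was not tested.

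Of the 6 members that passed the filter on dim probe sets (Mmp9, Mmp12, Mmp14, Timp1, Timp2 and Timp3), 5 were called at 3 weeks, 4 higher and 1 lower in transgenic hearts, beside the 46.6% of all probe sets. Mmp9 and Mmp12 passed the filter through the transgenic arrays alone, so the count of members called is no measure of the family. The median log2 difference over the 5700 genes tested was 0.01. Without the filter 7 of the 10 members were called, with Mmp2 and Mmp13 added as lower, where 31.7% of 12422 probe sets were called. The 5 calls were kept when any 1 array was left out, and the ranges of their log2 differences were 6.68 to 6.98 for Mmp12, 5.08 to 5.93 for Mmp9, 1.20 to 1.48 for Mmp14, 1.37 to 2.16 for Timp1 and -0.81 to -0.65 for Timp3. The sizes depended on the floor and the probe set: with the floor at the 40th percentile Mmp12 was 5.70 and Mmp9 4.49, as log2 of signal plus 50 Mmp12 was 5.90, and as the mean over the probe sets of a gene Mmp12 was 5.72, Mmp9 3.68 and Timp1 0.85.

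The ratio of an enzyme's signal to that of an inhibitor on the same array can show unequal change, though not relative amounts. The log2 ratio of Mmp9 to Timp1 was 1.56 (range 1.18 to 1.89) in transgenic hearts of 3 weeks and -2.37 (-3.41 to -1.14) in FVB hearts, so Mmp9 differed more than Timp1, with FVB Mmp9 mostly at the floor. The log2 ratio of Mmp14 to Timp2 was 2.70 (1.91 to 3.37) in transgenic hearts and 1.21 (0.28 to 1.55) in FVB hearts, without overlap. The ratio of Mmp2 to Timp2 could not be read, as Mmp2 lay at the floor on 3 of 6 transgenic and 3 of 5 FVB arrays.

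By labelled sex, the transgene effect at 3 weeks had the same sign in both for the 5 members called. The call rests on the mean of both differences, so choosing called members favours a shared sign. The log2 differences in females and males were 6.98 and 6.68 for Mmp12, 5.13 and 5.88 for Mmp9, 1.31 and 1.36 for Mmp14, 2.28 and 1.25 for Timp1, and -0.68 and -0.81 for Timp3. In females alone Timp3 had adjusted p = 0.0529, and in males 0.0137 (limma). For Timp2 they were -0.57 in females and 0.14 in males. The test of the difference between the sexes called 0 of the 6 members at a background of 0% (limma), and 0 members against 1228 of 7453 probe sets had an unadjusted p under 0.05. Timp1 came nearest, at 1.03 (SE 0.52, adjusted p = 0.336), and its female value rests on 2 FVB arrays of 318.8 and 106.8. The doubtful sex labels of 2 FVB arrays bear on every one of these values.

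Age within the transgenic hearts was tested in males, 13 against 3 weeks, and in females, 40 against 3 weeks. None of the 6 tested members was called in either (limma), where 0.523% of probe sets were called at 13 weeks and 0.671% at 40 weeks. At an unadjusted p under 0.05, 1 member by its brighter probe set (Mmp12) and 642 probe sets passed in males, and 1 member (Timp3) and 678 probe sets in females. The second Mmp9 probe set also had an unadjusted p of 0.023 in males (adjusted p = 0.44, limma). Each age comparison has 3 arrays a side, where groups can separate without overlap by chance. The share of all probe sets that did so was not counted. The strong 3-week signals of Mmp12, Mmp9, Mmp14 and Timp1 were still present at the later ages, and the levels below FVB of Timp3 too.

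**Figure D3:**
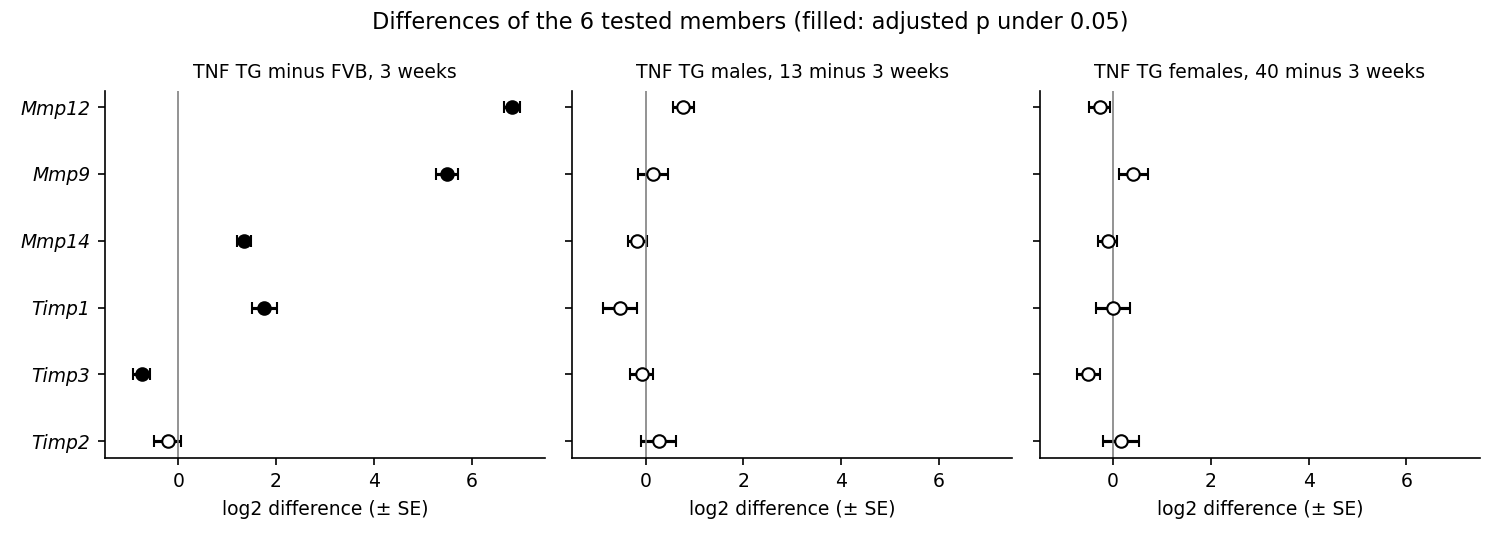
Log2 difference (x axis, point) with its SE (bar) of the 6 tested members in 3 comparisons, TNF transgenic minus FVB hearts of 3 weeks, transgenic males of 13 minus 3 weeks and transgenic females of 40 minus 3 weeks; filled points have adjusted p under 0.05 (limma). At 3 weeks 5 of 6 points are filled, from 6.83 for Mmp12 to -0.75 for Timp3, and no point is filled in the age comparisons.

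Mmp3 was called with age in the fit without the filter on dim probe sets. In transgenic hearts it had 42.3, 61.3 and 43.9 in females and 52.6, 69.8 and 66.9 in males at 3 weeks, 214.5, 361.2 and 291.6 in males at 13 weeks, and 147.3, 418.8 and 288.8 in females at 40 weeks. All 6 later arrays were above all 6 arrays of 3 weeks, and above the highest FVB array, at 126.6. Mmp3 did not pass the filter, since most arrays lay near the floor. Without the filter, the log2 difference was 2.17 in males of 13 weeks (SE 0.40, 4.51-fold, adjusted p = 0.0473) and 2.40 in females of 40 weeks (SE 0.40, 5.26-fold, adjusted p = 0.0166), a lower limit there as 2 of 3 female arrays of 3 weeks lay at the floor (limma, where 0.33% and 0.62% of probe sets were called).

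The Mmp3 calls depended on the arrays and settings. At 13 weeks the call was kept in 4 of 17 fits that each left out 1 array (value 1.998 to 2.37, adjusted p 0.0208 to 0.171), and it was lost without any of the FVB males, the transgenic arrays of 3 weeks or 13 weeks, or 40-week female 3. At 40 weeks it was lost without 3-week female 1 or 3, or 40-week female 2 or 3 (value 2.05 to 2.81, adjusted p up to 0.0876). The log2 difference kept its sign and stayed above 1 under every alternative run, with 1.56 at 13 weeks and 1.67 at 40 weeks as log2 of signal plus 50. The labels give no age-matched FVB hearts, so ageing with and without the transgene cannot be told apart.

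**Figure D4:**
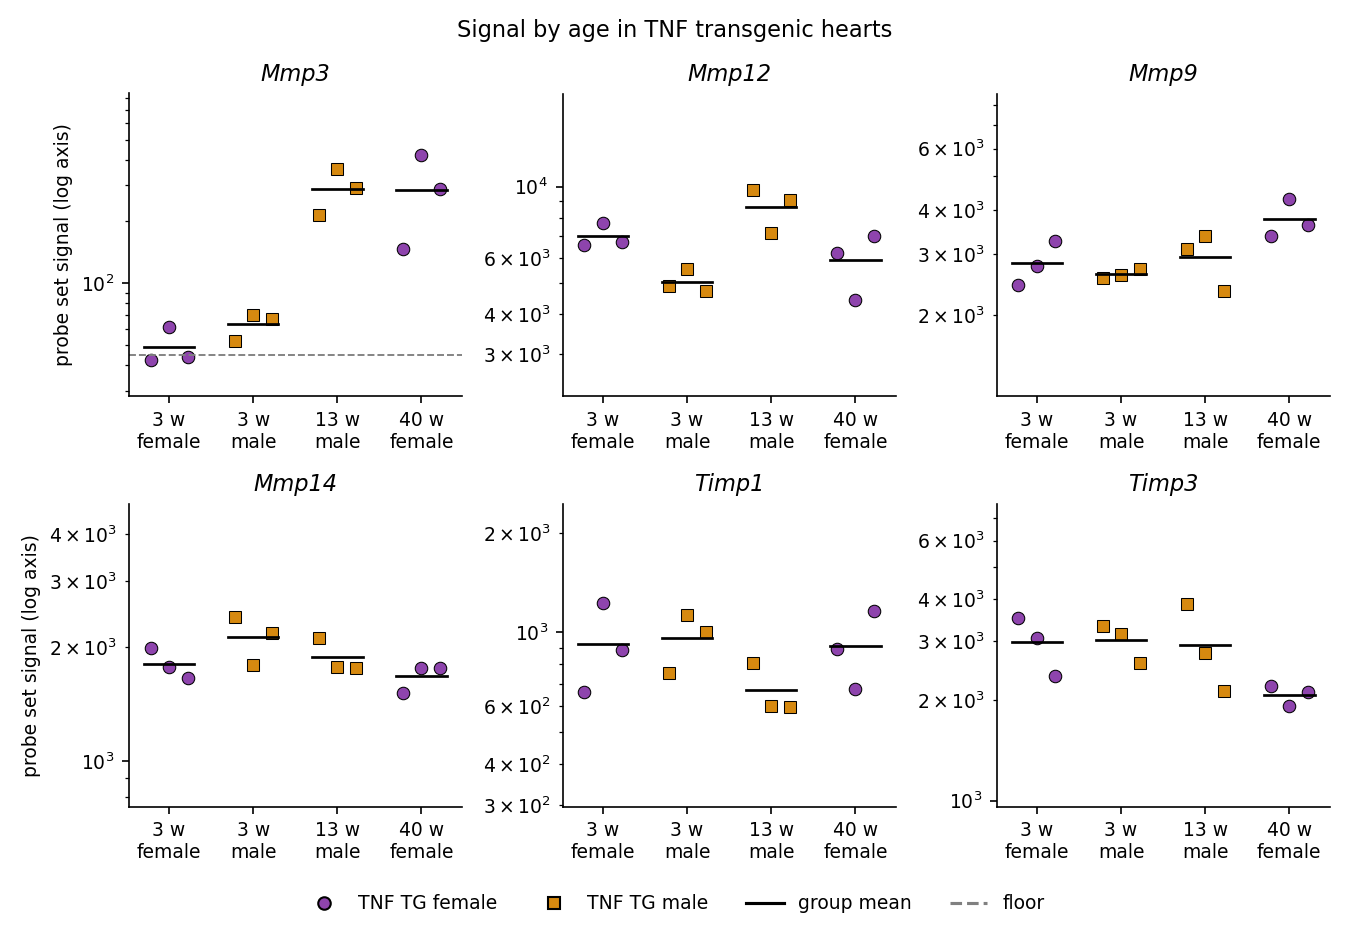
Signal on each TNF transgenic array (log axis, a range of its own in each panel) of 6 members at 3 weeks (females and males), 13 weeks (males) and 40 weeks (females); bars are group means and the dashed line in the Mmp3 panel is the floor of 44.675. The Mmp3 arrays of 13 and 40 weeks, 147.3 to 418.8, lie above all arrays of 3 weeks, 42.3 to 69.8.

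Mmp12 at 13 weeks had 9745.4, 7143.6 and 9060.8 in transgenic males, against 4889.9, 5538.2 and 4738.3 in transgenic males of 3 weeks. The groups did not overlap, and the log2 difference was 0.77 (SE 0.22, adjusted p = 0.164, limma); the second probe set gave 0.63. In females of 40 weeks it had 6225.5, 4440.9 and 7000.0, against 6585.2, 7727.8 and 6702.3 at 3 weeks, a log2 difference of -0.27 (adjusted p = 0.804) with overlap. The difference between the male and female age changes was 1.04 (SE 0.31, adjusted p = 1, limma), and none of the 7453 probe sets was called there (214 at an unadjusted p under 0.05). By group mean, Mmp12 was highest in males of 13 weeks (8650), then at 3 weeks (6030), at 40 weeks (5889) and in FVB (50.04), with ranges of 13 and 40 weeks that each overlap that of 3 weeks and do not overlap one another.

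Mmp9 at 40 weeks had 3368.8, 4314.6 and 3619.5 in transgenic females, against 2447.9, 2778.2 and 3272.8 in transgenic females of 3 weeks. Without overlap, the log2 difference was 0.41 (SE 0.30, adjusted p = 0.789, limma). In males it was 0.15 (adjusted p = 0.973), with 3106.8, 3366.2 and 2345.1 at 13 weeks on either side of the 3-week males. The second probe set had 221.9, 192.7 and 187.8 in males of 13 weeks, against 146.2, 170.0 and 149.6 in males of 3 weeks, and 207.9, 224.7 and 200.8 in females of 40 weeks, against 180.4, 153.3 and 182.1 in females of 3 weeks. That probe set was not called in either comparison, at 0.37 (adjusted p = 0.44) and 0.30 (adjusted p = 0.59, limma), though the arrays did not overlap. By group mean, Mmp9 was highest at 40 weeks (3768), then at 13 weeks (2939), 3 weeks (2729) and in FVB (39.4), with overlap between 13 and 3 weeks.

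Timp3 at 40 weeks had 2198.7, 1917.7 and 2112.7 in transgenic females, against 3509.4, 3071.2 and 2365.8 at 3 weeks, all below. The log2 difference was -0.51 (SE 0.23, adjusted p = 0.532, limma), and in males of 13 weeks it was -0.08, with 3865.3, 2768.6 and 2121.0. By group mean, Timp3 was lowest at 40 weeks (2076), followed by 13 weeks (2918), 3 weeks (3001) and FVB (5110); 13 weeks overlapped both 40 and 3 weeks.

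Mmp14 and Timp1 showed no call with age. Mmp14 had 2122.7, 1770.4 and 1758.4 at 13 weeks (log2 difference -0.17, adjusted p = 0.926) and 1511.4, 1768.2 and 1763.7 at 40 weeks (-0.11, adjusted p = 0.946). Timp1 had 808.4, 599.1 and 594.7 at 13 weeks (-0.52, adjusted p = 0.792) and 890.6, 675.1 and 1163.3 at 40 weeks (-0.01, adjusted p = 0.999, limma). All of these arrays were above every FVB array of 3 weeks.

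Timp2 differed by 0.26 at 13 weeks and 0.17 at 40 weeks on the log2 scale, with adjusted p of 0.945 and 0.958 (limma), and all 4 groups overlapped. Mmp2, Mmp8 and Mmp13 lay at the floor on every array of 13 and 40 weeks in their brighter probe set. For Mmp13 this leaves FVB hearts of 3 weeks as the group with signal over the floor on every array.

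Other genes of the pathway were counted from lists of known biology, at 3 weeks and against the same background. Of 15 further MMP and TIMP genes listed, 6 were on the array and none passed the filter. Mmp7, Mmp10, Mmp16 and Mmp24 were at or near the floor, Mmp11 lay between 60.5 and 212.1 and Mmp17 between 22.2 and 308.0. Of 11 relatives on the array that share the metalloproteinase fold, 6 passed the filter. Of these 6, 4 were higher in transgenic hearts and 2 were not called, with a median log2 difference of 1.04. Adam8, a protease of leukocytes, was higher by 2.89, Adam19 by 1.55, the sheddase Adam10 by 1.29 and Adam9 by 0.78 (adjusted p from 4.35e-09 to 0.00398, limma). Adam8 lay at the floor on 4 of 5 FVB arrays and could pass the filter through the transgenic arrays. The count and median are therefore no measure of this list.

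Activators of proenzymes moved in both directions. Of 9 tested, 3 were higher, 4 lower and 2 not called, with a median of -0.32. Plaur, the urokinase receptor, was higher by 1.38 and Plat, tissue plasminogen activator, by 0.91, while Pcsk6, a furin-like convertase, differed by -1.43 and Elane, neutrophil elastase, by -1.21. Of 8 tested inhibitors outside the TIMP family, 1 was called, the serpin Serpina3n, higher by 2.32 (adjusted p = 3.56e-07, limma). Reck, a membrane-anchored inhibitor of Mmp9, Mmp2 and Mmp14, differed by -0.27 (adjusted p = 0.167).

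Of 14 tested inducers and transcription factors of MMP genes, 10 were higher, 1 lower and 3 not called, with a median of 0.82. The higher genes include Tnf, the transgene itself. Tnf and Il1b lay at the floor on 4 of 5 FVB arrays, and Runx1 on 3 of 5. Such genes could pass the filter through the transgenic arrays, so the count and median are no measure of the list. Besides Tnf, at 7.31, Il1b was higher by 2.77, Runx1 by 2.19 and Fos, a subunit of AP-1, by 1.70, and the MMP inducer Bsg was lower, at -1.03. Of 21 matrix substrates, 8 were higher, 2 lower and 11 not called, with a median of 0.21, a share of calls near the 46.6% of all probe sets. Tnc (1.64), Vtn (1.37) and Bgn (0.94) were higher and Lama2 (-0.72) lower. Elastin (Eln), the substrate of the macrophage elastase, differed by 0.18 (adjusted p = 0.671, limma). Its mean signal went the other way, at 2990 in transgenic and 3384 in FVB hearts. The FVB signals of Eln ranged from 804.8 to 4784.4.

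**Figure D5:**
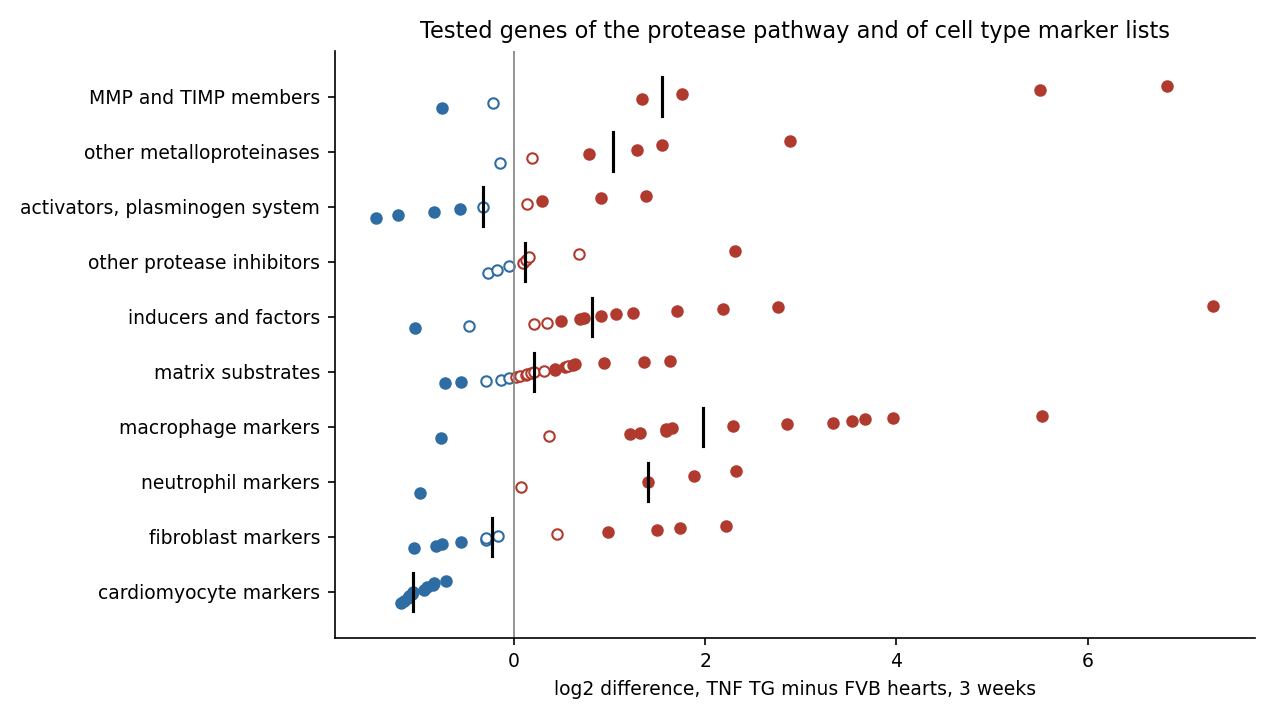
Log2 difference (x axis, TNF transgenic minus FVB hearts of 3 weeks) of each tested gene of the MMP and TIMP members, 5 pathway lists and 4 cell type marker lists; filled points have adjusted p under 0.05 (limma), red is higher and blue lower, and black bars are medians. Medians run from 1.98 for macrophage markers to -1.05 for cardiomyocyte markers.

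Markers of cell types that could carry these transcripts moved in the same comparison, in which 24.7% of all probe sets were called higher and 21.9% lower. Of 14 tested macrophage markers, 12 were higher, 1 lower (Fcgr1, -0.76) and 1 not called, with Lgals3 at 5.52, Ctss at 3.96, Lyz2 at 3.67 and Cd68 at 2.85. The summed signal of the 15 macrophage markers was 46329 to 59146 in transgenic hearts of 3 weeks, 46849 to 64168 at 13 weeks and 47433 to 55713 at 40 weeks, against 7568 to 10775 in FVB hearts. The transgenic ages overlapped in this sum, and none of them overlapped the FVB hearts.

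Of 12 neutrophil markers on the array, 5 passed the filter on dim probe sets. Of these 5, 3 were higher, 1 lower (Lcn2, -0.98) and 1 not called, with S100a8 at 2.33, S100a9 at 1.89 and Camp at 1.40. Ngp and Ly6g did not exceed the floor on any of these 6 transgenic arrays, and the sum of the 12 markers was 1523.8 to 2384.1 in transgenic and 662.9 to 4172.6 in FVB hearts. Of 12 fibroblast markers 4 were higher, 4 lower and 4 not called, beside the 46.6% of all probe sets called. All 11 tested cardiomyocyte markers were lower, with a median of -1.05 and Ryr2 at -1.17, and their sum was 125724 to 239153 in transgenic and 236526 to 374271 in FVB hearts. In bulk tissue fewer cells of a type and less RNA per cell cannot be told apart, and the part of cell composition in the MMP and TIMP differences was not tested.

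Without the FVB array that stands apart, the marker counts were 12 higher and 0 lower for macrophages, 3 and 0 for neutrophils, and 0 and 11 for cardiomyocytes. Without it, 9 inducers were higher and 1 lower, 3 activators were higher and 2 lower, and 6 matrix substrates were higher and 3 lower. Without that array and the 2 FVB arrays of doubtful sex, the 5 member calls remained, 8 inducers, 4 matrix substrates and 1 activator were higher, and 3 activators were lower. Of the inhibitors outside the TIMP family, 2 were called higher under either of these settings. At 13 and 40 weeks no gene of these pathway lists and no macrophage, neutrophil, fibroblast or cardiomyocyte marker was called, and of the smooth muscle markers Acta2 was lower at 40 weeks (-0.93, adjusted p = 0.0337, limma).

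The genes whose signal followed each member most closely over the 17 arrays were named by Pearson's r, as a description. The gap between FVB and transgenic arrays enters these r values, so r within the 12 transgenic arrays is given beside them. For Mmp12 they were Lgals3 (0.991, within transgenic arrays 0.34), Tnf (0.989 and -0.34) and Traf1 (0.987 and 0.07). For Mmp9 they were Tnf (0.995 and 0.40), Il1b (0.987 and 0.51) and Tmem176b (0.986 and 0.45). For Mmp14 they were Sema4d (0.977 and 0.78), Myo1f (0.976 and 0.63) and Selplg (0.974 and 0.77).

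Among the inhibitors, Timp1 was closest to Mthfd2 (0.896 and 0.16), Myo1f (0.892 and 0.26) and Wsb1 (0.889 and 0.52). Timp2 was closest to Sh3gl1 (0.900 and 0.94), Zfp777 (0.858 and 0.84) and Atp13a2 (0.803 and 0.85), with r values of like size within the transgenic arrays. Timp3 was closest to Hbb-b2 (0.918 and 0.83), Cs (0.885 and 0.68) and Dag1 (0.879 and 0.68). Among the members themselves, Mmp9 and Mmp12 had r of 0.985 over 17 arrays and -0.20 within the 12 transgenic arrays.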

How the data were processed

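Gene expression had been measured in mouse heart on Affymetrix U74V2A arrays, 1 per sample. The deposited table holds a probe set intensity (linear signal) per array, and the authors' software, background correction and scaling are not stated in the labels. The trimmed mean of every array was close to 499, so no further scaling was done. Groups, ages and sexes came from the sample titles. Identical columns were counted once, giving 17 arrays.

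The 25th percentile of the pooled signals, 44.675, was taken as a floor, lower signals were raised to it, and log2 was taken. After removal of 66 control probe sets, the 60% with the highest mean (7453) were tested in 1 limma fit (limma 3.58.1, R 4.3.3) with a mean per group, 11 residual degrees of freedom and Benjamini-Hochberg adjustment over all of them, called at 0.05. The transgene effect is the mean of the female and male difference. Mmp2, Mmp3, Mmp8 and Mmp13 did not pass the filter and were tested without it, over 12422 probe sets. Symbols came from the platform annotation, which can be old (10833 probe sets had 1 symbol), and the probe set of highest mean stands for its gene. The number of arrays limits the precision. The script was tested on simulated data. Promoters and their motifs came from RefSeq (GRCm38.p6), without the bases after the start.

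All 10 members are named, with up to 4 called genes of smallest p per list and the 3 genes of highest Pearson correlation per tested member. The members and lists were chosen with earlier results of these data known. Fibroblast, endothelial and smooth muscle markers were counted too: 3 of 9 endothelial markers were lower at 3 weeks, and 3 of 7 smooth muscle markers higher and 3 lower. Of all probe sets, 46.6% were called in that comparison. Alternatives covered scaling, floor, filter, array weights, the samples and groups fitted, the identical columns, the replicate block and leaving out each array. Correlations of same-numbered arrays ran from -0.189 to 0.241, and 5 of 11 pairs were over 0.1. The numbers were not used to pair arrays, though these values cannot show that no pairing exists.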

Additional observations from a re-analysis of the deposited data

Results flagged for a closer look

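Among 19 groups of 5 or 6 arrays examined, 1 array stood far from the rest of its group in 6 cases. The chance rate of about 1 in 20 groups does not apply to groups with all other arrays at the floor. There any array above the floor is flagged. Some cases also share 1 array, so the count is no sign of an excess. The FVB female array that is duplicated in the table was the high one for Mmp9 (signal 144.7, next 16.1), Mmp3 (126.6, next 40.7) and Mmp8 (72.0, next 24.5), with the other FVB arrays at the floor in each case. On that array the 5th percentile of signal was 37.9, against 4.1 to 8.9 on the others. Transgenic male 1 of 3 weeks was high for Mmp13 (56.1, next 29.2), with the other transgenic arrays at the floor. FVB female 3 was low for Timp1 (106.8, next 314.6) and FVB male 3 high for Timp3 (6903.1, next 4808.3). Without the duplicated array the log2 transgene effect of Mmp9 was 5.93, and Mmp3 without the filter turned to 0.32 (adjusted p = 0.503, limma).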

How the results depend on the processing

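The 5 members called at 3 weeks were the same 5 under every alternative run, the replicate block among them (5 members), and without the filter Mmp2 and Mmp13 joined them (7). Member calls with age depended on the settings: Mmp3 was called at 13 weeks (1 member) and at 40 weeks (1 member) under each of 2 separate settings, the floor at the 40th percentile with the filter kept, and no filter with the floor of 44.675, and array weights called Mmp12 at 40 weeks (1 member, -0.54, adjusted p = 0.0331, limma). Leaving out each array gave 0 to 1 members for the sex difference, the 1 being Mmp9 at -1.60 (adjusted p = 0.00256) without FVB female 3. Counts of probe sets called at 13 weeks were 61 with the higher floor, 80 with array weights, 61 without 3 doubted FVB arrays and 14 to 68 leaving out each array. At 40 weeks they were 78 with the higher floor, 77 without the filter, 30 with the brightest 40%, 803 with array weights and 28 to 67 leaving out each array. For the sex difference they were 6 after quantile normalization, 17 with a common median, 3 with the higher floor, 91 without the filter, 174 with the identical columns kept apart and 0 to 1490 leaving out each array, the 1490 without FVB female 3. The difference between the age changes gave 1 with array weights.

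Directions turned for some differences, not all of them near 0 in the main fit. The sex difference of Mmp9 was -0.75 there. Timp1 at 40 weeks was 0.0051 after quantile normalization. In the sex difference, Timp3 was -0.017 after quantile normalization and -0.0136 with array weights, Mmp14 0.30 with a common median, Mmp9 0.10 without 3 doubted arrays and Mmp12 -0.18 as the mean over its probe sets. In the difference between the age changes, Timp2 was -0.43 with array weights and Mmp14 0.16 with labelled sex ignored. At 3 weeks without the filter, Mmp2 was 0.0178 after quantile normalization, and Mmp3 0.21 after quantile normalization, 0.0925 as log2 of signal plus 50, 0.0192 with sex ignored and 0.32 without 3 doubted arrays. Leaving out each array gave, at 3 weeks, -0.43 to 0.0069 for Timp2 and -0.43 to 0.32 for Mmp3, at 13 weeks -0.31 to 0.12 for Timp3 and -0.19 to 0.69 for Timp2, and at 40 weeks -0.23 to 0.22 for Timp1 and -0.0674 to 0.33 for Timp2. In the sex difference it gave -1.60 to 0.10 for Mmp9, -0.34 to 0.23 for Mmp14 and -0.0552 to 0.30 for Timp3, and in the difference between the age changes -0.35 to 0.52 for Timp2 and -0.18 to 0.0315 for Mmp14. For Mmp3 without the filter, the replicate block gave 2.17 (adjusted p = 0.0648) and leaving out 3 doubted FVB arrays 2.17 (0.0692) at 13 weeks, and the higher floor gave 1.31 (0.112) at 13 and 1.20 (0.16) at 40 weeks. With only the groups compared the adjusted p was 0.0921 at 13 weeks and 0.254 at 40 weeks. For these changes the cause was not tested. Signal near the floor limits Mmp2, Mmp3, Mmp8, Mmp13 and the FVB side of Mmp9 and Mmp12. Of 11 same-numbered pairs of arrays, 5 had a correlation over 0.1, which cannot show whether the numbers mark a pairing.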
